A study of Drosophila melanogaster with 19 samples.

Results

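The comparison described here asks what changes when the factor Asense (Ase) is added to tissue that already over-expresses the repressor E(spl)m3-HLH (m3). Arrays were chosen by their titles: 2 arrays carry both transgenes (Ase+m3) and 3 carry E(spl)m3-HLH alone (m3), which is 5 of the 19 arrays of the series. All 18769 probe sets were compared. The series over-expressed neural precursor factors and a repressor in the notum, the dorsal thorax of the fly on which sensory bristles form, and measured RNA on Affymetrix arrays at 16 h after puparium formation. Values are log2 signals, so a difference of 1 is a doubling.

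Both groups carried sca-Gal4, which drives a transgene in the pattern of the scabrous gene, and tub-Gal80ts, a temperature-sensitive inhibitor of Gal4. The m3 pupae had UAS-E(spl)m3-HLH in addition, and the Ase+m3 pupae had UAS-Ase and UAS-E(spl)m3-HLH. Crosses grew at 18 °C and were moved to 29 °C for the 6 h before dissection. RNA was pooled from 8 to 12 whole notums for an array, and the labels call the samples of a condition biological replicates. Further groups with UAS-GFP or UAS-Ase in the same driver background, of 3 arrays each, were used to ask what Ase does without the repressor. Because whole tissue was measured and the driver acts in part of it, fewer cells of a type and less RNA per cell cannot be told apart.

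Asense is a basic helix-loop-helix activator of the achaete-scute family that is made in sensory organ precursors and neural stem cells. E(spl)m3-HLH is one of the basic helix-loop-helix repressors switched on by Notch signalling in the cells around a precursor. Such repressors bind the corepressor Groucho and keep proneural activators from turning on the precursor programme, so the pair of transgenes sets an activator against its usual antagonist.

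**Figure D1:**
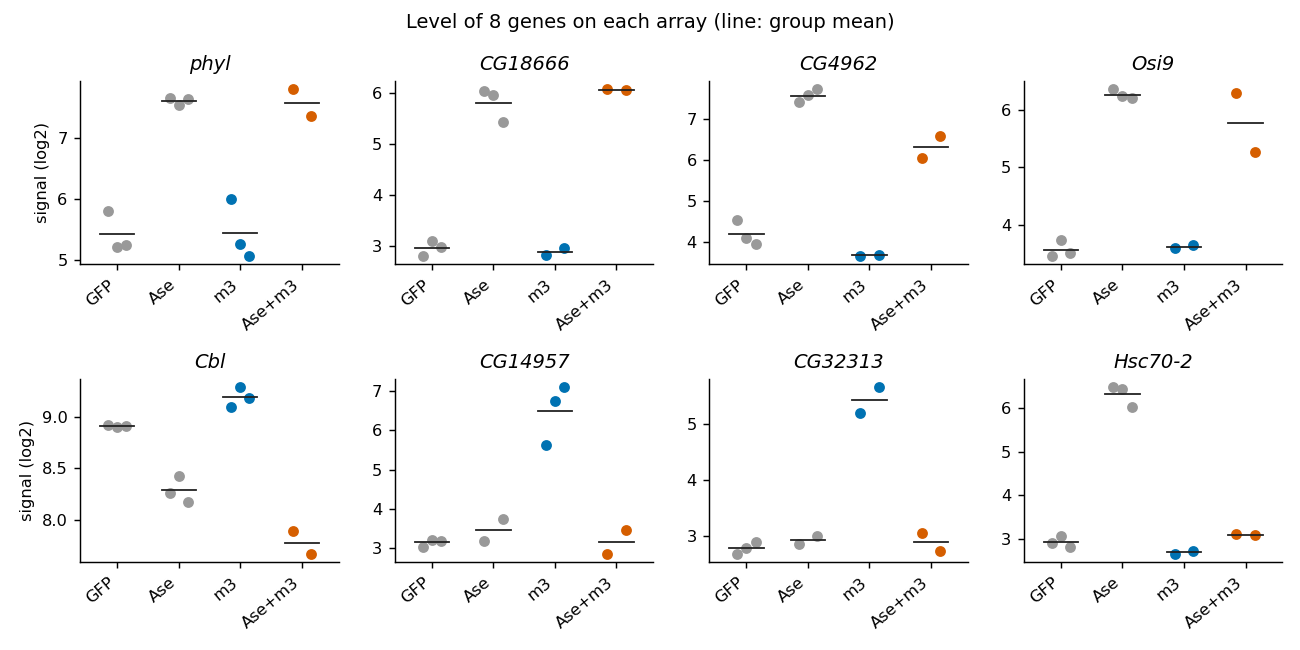
Log2 signal of 8 genes on each array of GFP, Ase, m3 and Ase+m3, with a line at the mean of each group; each panel has its own vertical axis, and arrays listed at 0 are left out. In phyl, CG18666, CG4962 and Osi9 the Ase+m3 arrays lie above all m3 arrays, in Cbl, CG14957 and CG32313 below them, and Hsc70-2 is high only in Ase.

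On the 4 arrays numbered replicate 3 in Sens, Ase, m3 and Ac+Sens, most probe sets are listed at exactly 0, on m3 replicate 3 60.5% of them (11353), and these were treated as missing. A dim gene therefore has 2 m3 values. The other limit is Ase+m3 replicate 2, whose median Spearman correlation with the other arrays was 0.890, against 0.964 to 0.987 for the rest. Probe sets named ase and E(spl)m3-HLH could not check the labels, since it is not stated whether their probes lie within the transgenes. The ase probe set read 4.99 and 4.54 on m3 replicates 1 and 2 and 5.05 and 4.44 on Ase+m3 replicates 1 and 2 (difference −0.02, SE 0.30, adjusted p = 0.970). That of E(spl)m3-HLH read 11.06, 11.06 and 11.19 in m3 and 11.25 and 11.13 in Ase+m3 (difference 0.09, SE 0.11, adjusted p = 0.637). The groups overlap in both. On the GFP arrays ase read 5.58, 5.23 and 5.15 and E(spl)m3-HLH 11.08, 11.03 and 11.03, and both Ase+m3 arrays lie below GFP for ase. On the array labelled Sens replicate 1, sens stood at the level of GFP, so this array goes against its label. It enters only the pooled spread here, and its effect is given below.

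A small set of genes was higher in Ase+m3 than in m3 on both arrays, led by phyl and several genes of unknown function. Cbl and a set of genes that were high in m3 without Ase were lower. The factor Ase and the genetic background of the UAS-Ase flies cannot be told apart, here or in Ase against GFP. Many more genes were lower on Ase+m3 replicate 2 only. In the limma model over all 19 arrays, 475 probe sets were called higher in Ase+m3 (2.53% of all) and 756 lower (4.03%) at an adjusted p under 0.05. For every one of the 1231 (6.56% of all), both Ase+m3 arrays lay beyond all measured m3 arrays. That is a weak criterion by itself, since 27.3% of all probe sets had both arrays above m3 and 20.8% had both below. Counted as genes, 268 of 11982 were higher (2.24%) and 616 lower (5.14%).

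A stricter count asked which calls each Ase+m3 array gave alone. With Ase+m3 replicate 2 left out, 896 probe sets were higher and 237 lower. With replicate 1 left out, 712 were higher and 2569 lower. Calls with the same sign in both of these fits, here named shared calls, numbered 149 higher (0.794%) and 71 lower (0.378%), or 86 (0.718%) and 50 (0.417%) genes. They made up 19.4% of the calls from replicate 1 and 6.71% of those from replicate 2. Both fits use the same 3 m3 arrays, so the overlap has no test here. Of the 220 shared calls, 219 were also called with both arrays in the fit.

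Single m3 arrays moved these counts as well. The 1231 calls became 140, 39 and 257 without m3 replicates 1, 2 and 3, and 624 without the array labelled Sens replicate 1. The shared calls became 128 and 53 without m3 replicates 1 and 2. A core of 35 probe sets, 16 higher and 19 lower, was called in every one of the 5 fits that leave out 1 array of the comparison. It held 24 named genes, 11 higher and 13 lower.

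**Figure D2:**
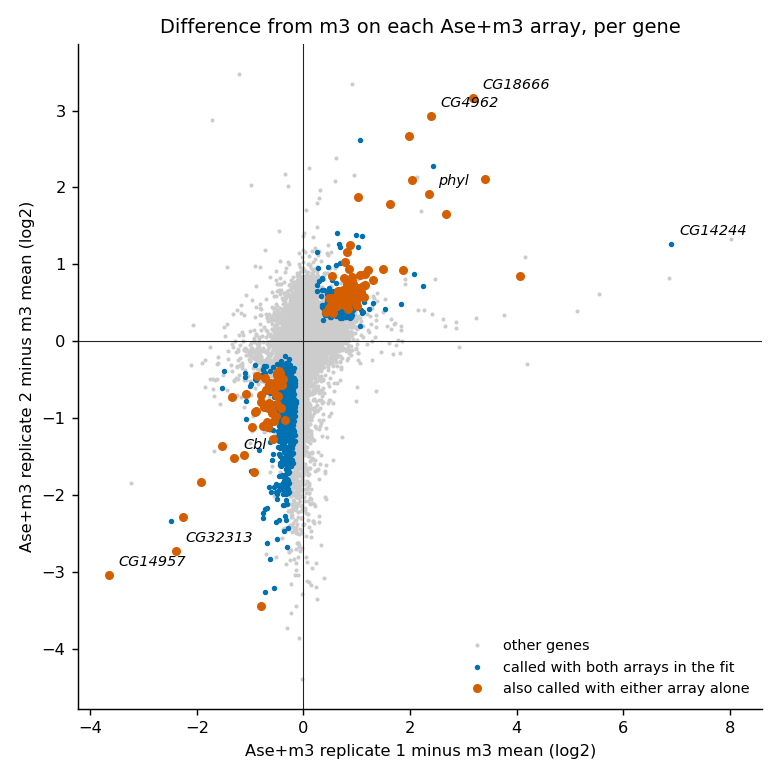
Difference of each gene from the m3 mean on Ase+m3 replicate 1 (horizontal) and replicate 2 (vertical), in log2 units; grey points are genes not called, blue points genes called with both arrays in the fit, and orange points genes that either array alone also called. The orange genes lie along the diagonal, while a tail of genes reaches far down on replicate 2 with differences near 0 on replicate 1, and CG14244 lies far to the right.

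Among genes that rose, phyl is the one with a known place in precursor formation. It encodes an adaptor that brings the Tramtrack repressor to degradation by the ubiquitin ligase Sina, and without it sensory precursors are not made. Its level was 6.00, 5.27 and 5.06 on the 3 m3 arrays and 7.79 and 7.36 on the Ase+m3 arrays. Both Ase+m3 arrays stood above every m3 array, a difference of 2.13 (SE 0.24, adjusted p = 0.000597) or 4.39-fold. The call held without each array of the comparison and under 10 of 12 other settings, the exceptions being a fit of the 2 groups alone and array weights, neither of which called any probe set in this comparison.

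CG18666, whose function is not known, had the strongest evidence of an increase. Its level was 2.81 and 2.96 on m3 replicates 1 and 2 and 6.07 and 6.05 in Ase+m3, a difference of 3.17 (SE 0.17, adjusted p = 1.69e-06). Detection calls were not used, so levels as dim as those of m3 here are not shown to be above background and no fold is given for them. The Ase+m3 arrays nearly coincide and lie far above m3. CG4962 was at 3.65 and 3.69 in m3 and at 6.06 and 6.60 in Ase+m3 (difference 2.66, SE 0.19, adjusted p = 2.80e-05). CG12164 was at 3.82 on both measured m3 arrays and at 5.81 and 6.49 in Ase+m3 (2.33, SE 0.22, adjusted p = 0.000815). In neither gene did the groups overlap.

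Osi9, a member of the Osiris family of insect membrane proteins, was at 3.59 and 3.64 in m3 and at 6.29 and 5.27 in Ase+m3 (2.17, SE 0.23, adjusted p = 0.00121). CG13081 was at 4.96 and 5.91 in m3 and at 7.47 and 7.53 in Ase+m3 (2.07, SE 0.35, adjusted p = 0.0168). The yellow family gene yellow-d was at 5.71 and 5.59 in m3 and 6.43 and 6.68 in Ase+m3 (0.91, SE 0.15, adjusted p = 0.00998). All 3 were shared calls without overlap, but CG13081 lost its call without m3 replicate 1 (adjusted p = 0.0726) and yellow-d without m3 replicate 2 (0.0918).

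The remaining genes that rose in all 5 leave-out fits were picked out after their values were seen. Adk3, an adenylate kinase, was at 6.64, 6.42 and 6.62 in m3 and at 7.58 and 8.44 in Ase+m3 (1.45, SE 0.18, adjusted p = 0.00121). CG1299 was at 8.56, 8.59 and 8.44 in m3 and 9.53 and 9.17 in Ase+m3 (0.82, SE 0.14, adjusted p = 0.00989), and is the brightest of them. In both genes the Ase+m3 arrays lie above all 3 m3 arrays. CG13062 (0.99), CG15740 (1.70), CG43168 (1.02) and CG5011 (0.78) were the others.

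Most shared increases were of dim probe sets. Of the 149, 132 had a mean signal under 5, against 57.3% of all probe sets, and only 8 were measured on m3 replicate 3. A difference of at least 1 was reached by 23 of them. Over all probe sets with a mean signal of 3 to 4, the median difference from m3 was 0.22 on Ase+m3 replicate 1 and 0.07 on replicate 2, and at 6 to 8 it was −0.13 and −0.19. Whether this slope with signal has a part in the small increases of dim probe sets was not tested beyond taking it out. That setting, chosen after seeing the data, gave 160 shared calls, 123 of them among the 220. It gave 278 calls in all, 159 higher and 119 lower.

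**Figure D3:**
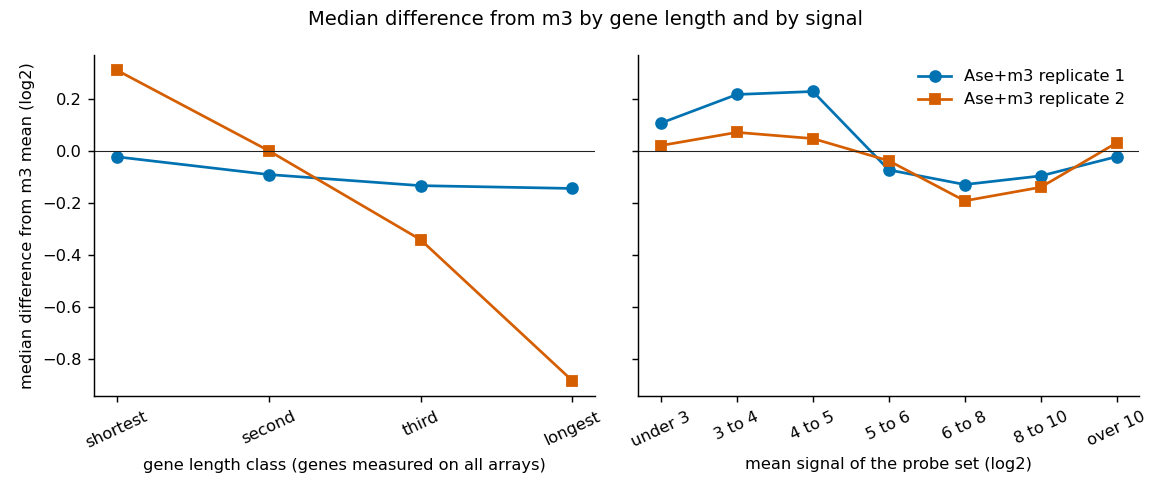
Median log2 difference from the m3 mean on each Ase+m3 array, for 4 classes of gene length (left, genes measured on all arrays) and for 7 ranges of mean signal (right, all probe sets). Replicate 2 goes from 0.31 in the shortest genes to −0.88 in the longest, replicate 1 from −0.02 to −0.14, and both are above 0 for signals under 5 and below it from 5 to 10.

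The decrease with the strongest evidence was in Cbl, a ubiquitin ligase that takes the epidermal growth factor receptor out of signalling. Its level was 9.09, 9.29 and 9.18 on the m3 arrays and 7.89 and 7.67 on the Ase+m3 arrays. Both lie more than 1 unit below every m3 array, and the difference was −1.41 (SE 0.10, adjusted p = 1.69e-06), 2.65-fold lower. The call held without each array of the comparison and under 10 of 12 other settings, with differences from −1.51 to −0.98. A dimmer Cbl probe set differed by −0.61 and was not called (adjusted p = 0.496). Cbl was the only gene among those named for their decrease in Ase against GFP that was also a shared call here.

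Sirt7, of the sirtuin family of deacylases, was at 6.92, 7.21 and 7.09 in m3 and at 6.48 and 6.15 in Ase+m3, without overlap (−0.76, SE 0.11, adjusted p = 0.00342). Iswi, the motor of several nucleosome remodelling complexes, was at 10.17, 10.27 and 10.07 in m3 and 9.51 and 9.06 in Ase+m3 (−0.88, SE 0.13, adjusted p = 0.00342). It was singled out after its values were seen, as 1 of the bright genes called in all 5 leave-out fits. Of the 71 shared decreases, 45 were measured on m3 replicate 3 and 28 had a mean signal under 5, so they rest on brighter probe sets than the increases. A difference of −1 or beyond was reached by 16 of them.

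Many of the largest shared decreases were in genes that stood high in m3 alone, and Ase+m3 had them near the level of GFP. CG14957 was at 5.63, 6.75 and 7.10 in m3 and at 2.86 and 3.46 in Ase+m3 (−3.34, SE 0.37, adjusted p = 0.00133). On the GFP arrays it was at 3.04, 3.21 and 3.19, and on the measured Ase arrays at 3.19 and 3.73. The m3 arrays stand alone above all other arrays on which it was measured.

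CG32313 had the same pattern, at 5.20 and 5.67 in m3, 3.05 and 2.71 in Ase+m3 (−2.55, SE 0.16, adjusted p = 2.03e-05) and between 2.67 and 2.88 in GFP. CG13361 was at 4.89, 5.80 and 6.48 in m3 and at 3.46 and 3.44 in Ase+m3 (−2.27, SE 0.33, adjusted p = 0.00937), with GFP between 3.15 and 3.29. CG13361 was also high in the Sens group, at 5.89 on the array labelled Sens replicate 1 and 5.10 on Sens replicate 2. CG31809 was at 4.47, 6.05 and 6.49 in m3 and at 3.75 and 3.84 in Ase+m3 (−1.87, SE 0.40, adjusted p = 0.0287), against 3.65 to 3.85 in GFP. In all 3 genes both Ase+m3 arrays were below every m3 array. The call of CG31809 was lost without m3 replicate 2 or 3 (adjusted p = 0.115 and 0.0617).

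CG14075 was at 7.21, 6.26 and 6.29 in m3 and at 4.10 and 4.26 in Ase+m3 (−2.41, SE 0.65, adjusted p = 0.0450). It was not a shared call, and it lost its call without any 1 of the 5 arrays, although the groups do not overlap. It read 6.07 and 6.23 on Sens replicate 3 and Ac+Sens replicate 3, which hold zeros like m3 replicate 3, and 4.12 or lower on the GFP, Ac and Ase arrays that measured it. Of the others with this pattern, singled out after their values were seen, antr was at 4.71 and 4.90 in m3 and at 3.28 and 3.44 in Ase+m3 (−1.44). CG13794 was at 4.02 and 4.01 in m3 and at 2.89 and 2.54 in Ase+m3 (−1.30). Both had no overlap and were called in all 5 leave-out fits. For these genes the repressor and the genetic background of the m3 flies cannot be told apart.

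Other large increases depended on single arrays of the comparison. On Ase+m3 replicate 1, CG14244 read 12.30, against 6.67 on replicate 2 and 5.58, 5.24 and 5.39 in m3 (difference 4.08, SE 1.07, adjusted p = 0.0416). It was called with all arrays but not without Ase+m3 replicate 1 (adjusted p = 0.270). CG14302, at 7.69 and 6.40 against 4.11 and 4.47 in m3 (2.75, SE 0.48, adjusted p = 0.0194), was a shared call, lost without m3 replicate 1 or 2. The metallothionein gene MtnB, at 7.54 and 7.38 against 4.45 and 5.77 in m3 (2.35, SE 0.64, adjusted p = 0.0479), was lost without any 1 of the 5 arrays.

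Other genes were far from m3 on 1 array and within the m3 range on the other, 121 probe sets on replicate 1 and 810 on replicate 2. The following were among the largest and were chosen after seeing their values. Drsl2, of the drosomycin-like peptides, was at 6.26 on Ase+m3 replicate 1 and 3.28 on replicate 2, with m3 at 3.44 and 3.26. The metallothionein gene MtnC was at 7.29 and 4.37, with m3 between 3.79 and 4.50. On replicate 2 the insulin receptor gene InR was at 5.11 against 8.29 on replicate 1 and 8.17 to 8.31 in m3, and the Notch coactivator gene mam was at 4.59 against 7.47 on replicate 1 and 7.44 to 7.85 in m3. Neither InR nor mam was called in Ase+m3 with both arrays (adjusted p = 0.109 and 0.0744).

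Gene length went with these replicate 2 values. The Spearman correlation across 6088 genes, which are not independent replicates, between gene length and the difference from m3 was −0.693 on Ase+m3 replicate 2 and −0.239 on replicate 1. In the longest of 4 length classes, 10.9% of genes were called lower, and in the shortest 0.477%. Genes called lower had a median length of 5504 bases, those called higher 1539 and all genes 2263. The shared decreases had a median of 4822 bases. What part length has in the decreases was not tested beyond taking its trend out. Over the 13544 probe sets with a gene length this gave 552 higher and 447 lower calls, 558 of them among the 1231. It gave 253 shared calls, 102 of them among the 220. All 18769 probe sets had given 475 higher, 756 lower and 220 shared calls. When only probe sets measured on all arrays entered, 67 of 7284 were higher and 1091 lower as deposited, and 65 and 51 of the 6416 with a gene length after the trend was removed, a setting chosen after seeing the data. After quantile normalization of these probe sets, 32 were higher and 20 lower.

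**Figure D4:**
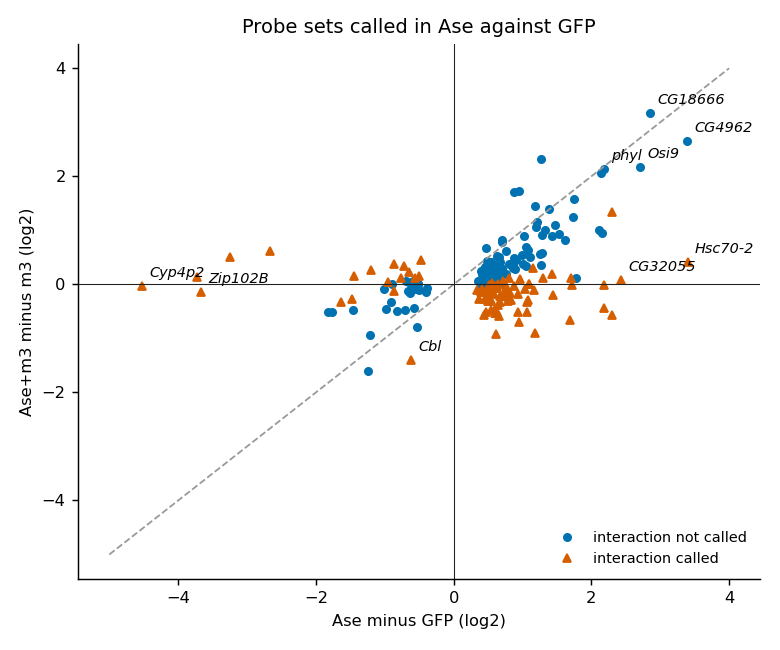
Log2 difference of Ase from GFP (horizontal) and of Ase+m3 from m3 (vertical) for the 233 probe sets called in Ase against GFP; triangles mark those whose interaction was called, and the dashed line marks equal differences. CG18666, CG4962, phyl and Osi9 lie near the dashed line, while Hsc70-2, CG32055, Cyp4p2 and Zip102B lie near the horizontal line at 0.

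Genes raised by Ase without the repressor were then followed in its presence. Ase against GFP uses none of the 5 arrays compared above, although both comparisons come from 1 model. It called 188 probe sets higher (1% of all) and 45 lower (0.24%). Of the 188, 75 (39.9%) had both Ase+m3 arrays above all m3 arrays, against 27.3% of all probe sets, and 34 had both below, against 20.8%. Of these 188, 33 were called higher in Ase+m3 against m3, which is 17.6% of them and 6.95% of the 475, and 8 were called lower. Among all probe sets 2.53% were called higher and 4.03% lower. The median difference of the 188 was 0.65 in Ase against GFP and 0.08 in Ase+m3 against m3, where the median of all probe sets was 0.04. Shared calls in the same direction numbered 20, beside 0.794% of all probe sets with a shared call higher.

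Several of the genes raised by Ase against GFP were also higher in Ase+m3 than in m3, and 6 of those that rose in both comparisons are given here with both differences. For phyl the difference was 2.19 in Ase against GFP (7.65, 7.54 and 7.64 against 5.81, 5.21 and 5.25) and 2.13 in Ase+m3 against m3, with an interaction of −0.05 (SE 0.32, adjusted p = 0.936). For CG18666 it was 2.85 and 3.17, for CG4962 3.39 and 2.66, for Osi9 2.71 and 2.17, for CG13081 2.13 and 2.07, and for yellow-d 1.29 and 0.91. The interaction was called in none of these 6 (adjusted p from 0.0934 to 0.946), which does not show that the responses were equal. Of the 11 genes that rose in all 5 leave-out fits, 8 also rose in Ase against GFP, beside 133 of all 11982 genes.

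Other genes raised by Ase alone were close to the m3 level when both factors were present. Hsc70-2, a member of the Hsp70 chaperone family, was at 6.49, 6.46 and 6.03 in Ase and between 2.81 and 3.08 in GFP. It was at 3.11 and 3.09 in Ase+m3 and at 2.66 and 2.72 in m3, which is a difference of 0.41 (SE 0.14, adjusted p = 0.0884) against 3.40 without the repressor. The interaction was −2.99 (adjusted p = 4.10e-06). Nepl3, of the neprilysin-like peptidase family, was at 6.19, 6.24 and 6.03 in Ase, 4.08 to 4.74 in GFP, 5.02 and 4.99 in m3 and 5.09 and 4.89 in Ase+m3 (interaction −1.73, adjusted p = 0.0118).

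CG32055 differed from these, because m3 alone had it high. It was at 7.27, 7.10 and 7.49 in m3, 6.94 and 7.79 in Ase+m3 and 7.36, 7.24 and 7.39 in Ase, against 4.99, 4.91 and 4.80 in GFP (interaction −2.35, adjusted p = 0.000597). The m3, Ase and Ase+m3 arrays overlap and all lie above GFP. Of the 188 probe sets, 77 had a called interaction of the opposite sign. This count has no test, as the interaction contains the difference that chose them.

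Among the 45 probe sets called lower in Ase against GFP, 16 (35.6%) had both Ase+m3 arrays below all m3 arrays. Of the 45, 6 (13.3%) were called lower in Ase+m3 against m3, which is 0.794% of the 756. In the other direction, 7 had both above and 2 were called higher. The 45 include Cyp4p2, Hasp and Cyp4p1, which were high in GFP and low in all other groups, so these are not particular to Ase. Of all probe sets, 20.8% had both below and 27.3% both above, and 4.03% were called lower and 2.53% higher. The median difference of the 45 was −0.76 in Ase against GFP and −0.07 in Ase+m3 against m3. Cbl fell in both, with 8.92, 8.89 and 8.91 in GFP and 8.26, 8.42 and 8.18 in Ase (−0.62, adjusted p = 0.00138). Its decrease was larger in the presence of m3, with an interaction of −0.79 (SE 0.13, adjusted p = 0.0134). The mean of Cbl without Ase was itself higher in m3 (9.19) than in GFP (8.91). Cbl is 7293 bases long, and the settings given for it above concern Ase+m3 against m3, not this interaction. Zip102B, which encodes a zinc transporter, was at 4.09, 4.16 and 4.04 in Ase against 7.81, 7.69 and 7.81 in GFP, but at 7.92 and 7.68 in Ase+m3 and 7.84, 7.89 and 8.10 in m3. Its interaction was 3.53 (adjusted p = 0.000256), and the Ase+m3 arrays overlap those of m3.

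The interaction asks of every probe set whether the response to Ase differs when m3 is present. It was called positive for 127 (0.677%) and negative for 614 (3.27%). This excess of negative calls turned round with the length trend removed, to 220 positive and 107 negative. Over probe sets measured on all arrays it was then 23 and 6, a setting chosen after seeing the data. The Spearman correlation of gene length with the deviation from the median array was −0.598 on GFP replicate 2. On Ase replicates 1 and 3 it was 0.371 and 0.440, and on the other GFP and Ase arrays −0.088 to 0.077. Of the 13 genes that fell in all 5 leave-out fits, 12 had a called negative interaction, a count with no test because the interaction contains the difference that chose these genes. Of the 13, Cbl and exp also fell in Ase against GFP, beside 36 of all 11982 genes. Some genes with a positive interaction stood apart in GFP from every other group. Cyp4p2, a cytochrome P450 gene, was at 8.43, 8.50 and 8.46 in GFP and between 3.57 and 4.15 on all other arrays. Its interaction was 4.50 (adjusted p = 8.61e-10), while its Ase+m3 arrays (3.57 and 4.15) overlapped those of m3 (3.90, 3.77 and 3.97). Without Ase+m3 replicate 1 the interaction was called for 3409 probe sets, and without m3 replicate 2, Ase replicate 1 or GFP replicate 2 for 38, 38 and 53.

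Among precursor genes, phyl alone passed the test. Of 29 measured proneural and sensory organ precursor genes, 1 was called higher (phyl) and 0 lower, against 2.24% and 5.14% of all genes. The median difference of the list was −0.16, beside 0.01 over all genes, and 3 members had both arrays above m3 and 10 below. Over all genes 23.4% had both above and 23.4% both below. The proneural gene ac was at 6.46, 6.53 and 6.88 in m3 and 5.83 and 6.51 in Ase+m3, and sens, the zinc finger gene that sustains the precursor state, was at 7.13, 6.61 and 6.28 against 6.33 and 6.71. The groups overlap in both, and neither was called (adjusted p = 0.258 and 0.904). In the list of 14 neural precursor and neuroblast genes limma called 0. At an unadjusted p under 0.05 this list had 1 higher and 2 lower, beside 10.9% and 19.3% of all genes. There wor, a Snail-family factor of neuroblasts, stood at 3.62 and 3.44 against 3.07 and 3.06 (0.46, adjusted p = 0.0686), and mira, which carries fate determinants to the daughter cell, at 6.67 and 5.85 against 6.45 to 6.81.

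**Figure D5:**
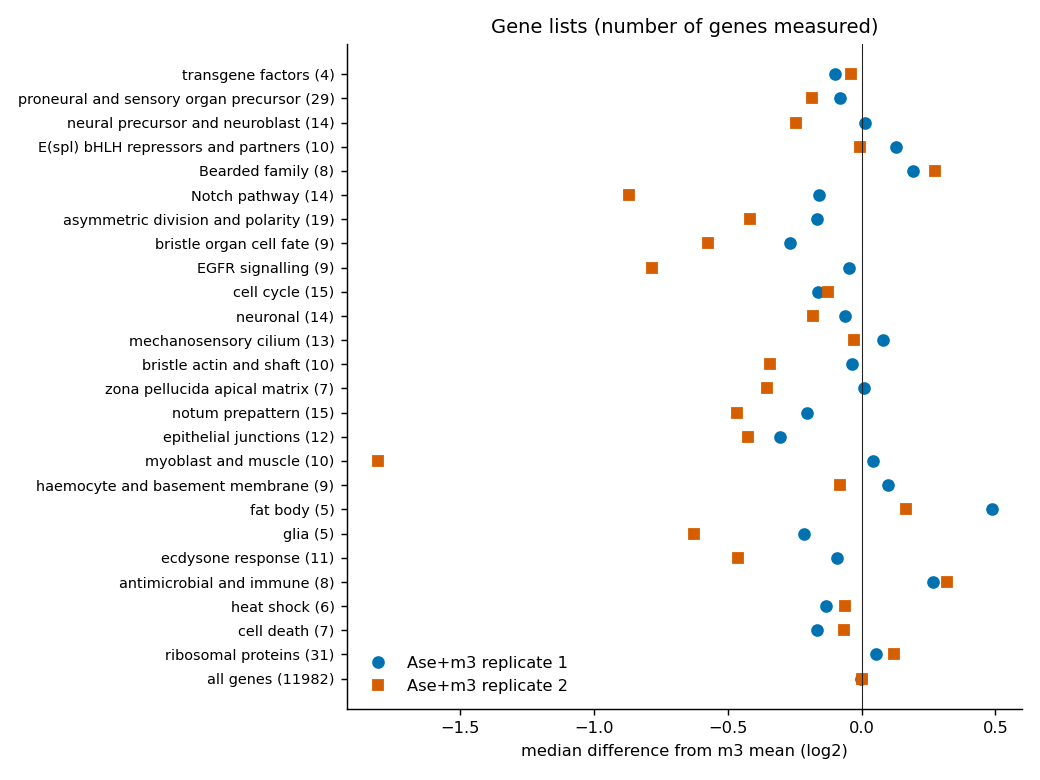
Median log2 difference from the m3 mean over the measured genes of each list, for Ase+m3 replicate 1 (circles) and replicate 2 (squares), with the number of genes in brackets. Most lists are lower on replicate 2 than on replicate 1, by the most in the myoblast and muscle list, and both arrays are above 0 for the Bearded family, fat body, antimicrobial and ribosomal protein lists.

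Targets of Notch signalling showed no called change. E(spl) bHLH genes are repressors of the same family as the transgene. Of their list of 10 with partners limma called 0, beside 2.24% higher and 5.14% lower of all genes. At an unadjusted p under 0.05, 0 were higher and 2 lower, beside 10.9% and 19.3% of all genes. E(spl)m7-HLH was at 10.24, 9.83 and 10.12 in m3 and 10.31 and 10.20 in Ase+m3, and E(spl)mbeta-HLH at 9.87, 9.90 and 10.11 against 10.26 and 10.21 (0.27). E(spl)m5-HLH, which rose by 2.11 in Ase against GFP (adjusted p = 0.0467), was at 5.65 and 4.91 against 4.17 and 4.39 (SE of the difference 0.58, adjusted p = 0.281). Both its Ase+m3 arrays lie above m3, within a wide spread. E(spl)mdelta-HLH differed by −0.01. The corepressor gene gro was at 9.89 on Ase+m3 replicate 1 and 7.95 on replicate 2, with m3 between 9.95 and 10.03 (adjusted p = 0.0692).

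Bearded family genes encode small inhibitors of the ubiquitin ligase Neuralized. Limma called 0 of 8, beside 2.24% higher and 5.14% lower of all genes. At an unadjusted p under 0.05, 1 was higher and 0 lower, beside 10.9% and 19.3% of all genes. The median difference of the 8 was 0.26, with 1 gene above m3 on both arrays and 0 below, beside 23.4% of all genes on each side. E(spl)m4-BFM was at 8.10 on Ase+m3 replicate 2 and 6.32 on replicate 1, with m3 at 6.35, 5.33 and 5.45 (SE of the difference 0.62, adjusted p = 0.126). Brd was at 7.68 and 8.20 against 8.13, 7.43 and 7.07, and Tom at 10.02 and 10.26 against 10.42, 10.11 and 10.36. All 3 genes overlap between the groups.

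Beside shares of 2.24% higher and 5.14% lower over all genes, 0 of 14 Notch pathway genes rose and 3 fell. They were H, which encodes the Hairless antagonist of Notch targets (−0.98, SE 0.27, adjusted p = 0.0462), Su(dx), a ubiquitin ligase acting on the receptor (−0.56, SE 0.15, adjusted p = 0.0456), and dx, encoding Deltex (−0.53, SE 0.14, adjusted p = 0.0441). None was a shared call. H was at 9.22, 9.29 and 9.30 in m3 and at 8.96 on replicate 1 and 7.62 on replicate 2. The median of the list was −0.16 on replicate 1 and −0.87 on replicate 2, and its median gene length was 7577 bases. The 3 calls became 0 without Ase+m3 replicate 2, 0 without any 1 m3 array and 8 without Ase+m3 replicate 1. In the fit without Ase+m3 replicate 1, 16.9% of all genes were called lower, and in that without replicate 2, 1.36%.

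The list of bristle organ cell fate genes had 9 measured members, of which phyl rose and Sox15 and ebi fell, beside 2.24% higher and 5.14% lower of all genes. Sox15, a transcription factor of the socket cell, was at 6.32, 6.92 and 6.73 in m3 and at 5.82 and 5.24 in Ase+m3 (−1.12, SE 0.30, adjusted p = 0.0436). A dimmer Sox15 probe set went the other way, by 0.30, and was not called (adjusted p = 0.1055). The F-box-like gene ebi was at 8.05, 8.11 and 7.90 against 7.75 and 7.45 (−0.42, SE 0.10, adjusted p = 0.0361). The groups do not overlap, but neither was a shared call, and both calls were lost without Ase+m3 replicate 2 (adjusted p = 0.186 and 0.181). The call of Sox15 was also lost without m3 replicate 1, 2 or 3 (0.0725, 0.148 and 0.0895), and that of ebi without m3 replicate 1 or 2 (0.0880 and 0.131). In the EGFR list 1 of 9 fell, Star (S), whose product moves the ligand Spitz through the secretory pathway (−0.94, SE 0.23, adjusted p = 0.0355), which was lost without Ase+m3 replicate 2 (0.192) and without m3 replicate 1, 2 or 3 (0.0824, 0.115 and 0.0675).

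Several genes of the notum epithelium were called lower. Of 12 epithelial junction genes 4 fell and 0 rose, against 5.14% and 2.24% of all genes. The apical determinant gene crb was at 9.89, 10.04 and 9.94 in m3 and at 9.49 and 8.76 in Ase+m3 (−0.83, SE 0.17, adjusted p = 0.0215). The E-cadherin gene shg was at 7.14, 7.20 and 7.27 against 6.92 and 6.18 (−0.65, SE 0.18, adjusted p = 0.0448). In both, replicate 1 lies below the m3 arrays by a small step and replicate 2 by a larger one. The septate junction genes cora (−1.44, adjusted p = 0.0401) and Nrg (−0.84, adjusted p = 0.0455) were the others, and none of the 4 was a shared call.

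The list had 9 of 12 genes below m3 on both arrays, against 23.4% of all genes, and a median difference of −0.31 on replicate 1 and −0.42 on replicate 2. Its median gene length was 11457 bases. The 4 calls became 1 without Ase+m3 replicate 2, 0 without m3 replicate 2, 1 without m3 replicate 1 or 3, and 0 with the length trend removed over probe sets measured on all arrays. Of 15 notum prepattern genes, the Pax gene eyg (−0.86, SE 0.18, adjusted p = 0.0255), the Pannier cofactor gene ush (−0.63, SE 0.18, adjusted p = 0.0477) and the BMP ligand gene dpp (−0.67, SE 0.17, adjusted p = 0.0382) fell and 0 rose. None was a shared call, and 0 of the 3 was called without Ase+m3 replicate 2. Over all genes 5.14% were called lower with both arrays and 1.36% without Ase+m3 replicate 2. The call of ush was also lost without any 1 m3 array, and its difference turned to 0.13 with the length trend removed over probe sets measured on all arrays. The prepattern gene pnr overlapped between the groups (8.62 and 9.05 against a mean of 9.04).

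Of 13 mechanosensory cilium genes, nompC, the channel of touch-sensitive neurons, rose (0.52, SE 0.14, adjusted p = 0.0491) and rempA, a subunit of intraflagellar transport, fell (−0.66, SE 0.14, adjusted p = 0.0329). Both are dim, with nompC at 3.61 on m3 replicates 1 and 2 and 4.22 and 4.05 in Ase+m3, and rempA at 4.51 and 4.66 against 3.71 and 4.13. Only rempA was a shared call, and a dimmer nompC probe set differed by 0.34 without a call (adjusted p = 0.144). Over all genes 2.24% were called higher and 5.14% lower. In the ecdysone list 1 of 11 fell, the nuclear receptor gene ftz-f1 (8.38, 7.90 and 8.14 against 7.84 and 6.17). A further probe set of ftz-f1 differed by −1.99 (adjusted p = 0.00876). The glial list had 1 of 5 lower, loco, and the zona pellucida list 1 of 7, qsm (−0.49, adjusted p = 0.0254). The call of qsm was lost with the length trend removed (adjusted p = 0.112), and over probe sets measured on all arrays its difference then turned to 0.095.

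Limma called no gene at an adjusted p under 0.05 in the lists of asymmetric division and polarity (19 measured), cell cycle (15), neuronal (14), bristle actin and shaft (10), myoblast and muscle (10), haemocyte and basement membrane (9), antimicrobial (8), cell death (7), heat shock (6), fat body (5), trachea (3) and ribosomal protein (31) genes. At an unadjusted p under 0.05 these 12 lists, with 137 entries, held 4 higher (2.92%) and 33 lower (24.1%), beside 10.9% and 19.3% of all genes, among them 8 lower of the 10 myoblast and muscle genes. The ribosomal protein genes had 20 of 31 above m3 on both arrays, beside 23.4% of all genes, with a median difference of 0.08 and a median length of 1099 bases. The myoblast and muscle list had a median of 0.04 on replicate 1 and −1.81 on replicate 2. Without Ase+m3 replicate 1, 10 of the 19 asymmetric division genes and 9 of the 29 precursor genes were called lower, beside 16.9% of all genes in that fit, and without Ase+m3 replicate 2 none of either list was, beside 1.36%.

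Markers of other cell types were read beside these lists. Of 8 markers of notum epithelium, 5 were called lower, beside 5.14% of all genes. These 5, ush, eyg, shg, crb and cora, were already named above in the junction and prepattern lists, and none was a shared call. The log2 of the summed signal of the 8 was 11.66 and 11.90 on m3 replicates 1 and 2 and 11.37 and 11.07 in Ase+m3. That of 3 fat body markers was 12.52 and 12.50 in m3 and 12.84 and 12.58 in Ase+m3, and that of 4 haemocyte markers 7.80 and 7.89 in m3 and 8.31 and 7.14 in Ase+m3. The fat body gene Fbp1 was highest on Ase+m3 replicate 1, at 10.49, against 9.32 on replicate 2 and 8.82, 9.62 and 8.95 in m3. Neuron markers summed to 8.52 and 8.54 in m3, 8.23 on replicate 1 and 6.37 on replicate 2, and none of the fat body, haemocyte, muscle, neuron or glia markers was called. Their part in the gene differences was not tested.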

How the data were processed

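The deposited values are log2 signals made with RMA, which corrects background, normalizes by quantiles and summarises probe sets, per the submitters' processing notes. No source used here gives its version or why 4 arrays hold zeros. Zeros were taken as missing. The members and lists were chosen with earlier results of these data known. Groups come from the sample titles.

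Probe sets were named by the platform annotation: 13647 name 1 gene, 402 several and 4720 none here. Gene lengths came from a RefSeq table of Release 6 of the fly genome. Each gene stands for its brightest single-gene probe set, by the mean of the 15 arrays without zeros.

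Differences were fitted by lmFit, contrasts.fit and eBayes of limma 3.58.1 (R 4.3.3) on all 19 arrays with 1 mean for each of 7 groups, without covariates or a filter. P-values are two-sided and adjusted over all probe sets by Benjamini-Hochberg, and an adjusted p under 0.05 was called. The code was tested on simulated data. Precision is limited by the number of arrays.

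The naming rule takes the transgene genes, the 10 largest non-overlapping called changes each way, up to 4 members of each list by smallest p, all E(spl) and Bearded genes, 5 interaction genes of each sign and 10 genes of each sign called in Ase against GFP. Not all of these are printed. Alternatives were other normalizations, filters, samples, trend corrections, array weights and a replicate block. A loess (span 0.5) over gene length or signal removed a trend per array.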

Additional observations from a re-analysis of the deposited data

Results flagged for a closer look

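The interaction test was called in the limma model for the 20 named genes given here, which are not all the named genes it called. The test asks for the difference between the response to Ase with m3 and without it. Each value here is that difference, (Ase+m3 minus m3) minus (Ase minus GFP), in log2 units. It was negative for CG14957 (−3.65), CG32313 (−2.70) and CG13361 (−2.51), which were high in m3 without Ase. CG13361 was also high on the arrays labelled Sens replicates 1 and 2. Negative values also stood for Hsc70-2 (−2.99), Nepl3 (−1.73) and CG2663 (−1.24), which were high in Ase without m3, and for CG32055 (−2.35), which was high in m3, in Ase and in both together. CG15820 was at −1.12, Sirt7 at −1.01 and Cbl at −0.79. Also negative were mbl (−2.62), ari-1 (−2.56) and wcy (−2.10). Their Ase+m3 replicate 2 values, 3.81, 3.41 and 5.69, lay far below those of replicate 1, 6.35, 6.06 and 7.62.

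The difference was positive for Cyp4p2 (4.50), Hasp (3.88) and Cyp4p1 (3.75), which stand high in GFP alone, for Zip102B (3.53), CG43117 (1.21) and Dtd (1.46), which were low in Ase but not in Ase+m3, and for CG14302 (3.46), which was higher in Ase+m3 than on any other array.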

How the results depend on the processing

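Counts of called probe sets depended strongly on the processing. The count of 1231 in Ase+m3 against m3 became 0 with only these groups fitted, where 108 of 209 shared calls were among the 220. It became 0 with array weights, 52 after quantile normalization of probe sets measured on all arrays and 162 without the 4 arrays with zeros. It became 278 with the signal trend removed, and 116 with the length trend removed over probe sets measured on all arrays. Without the array labelled Sens replicate 1 it became 624. It ran from 39 to 3281 when 1 array was left out. The 741 interactions became 37, 4, 22, 36, 132, 29 and 381 in the same order, 1351 over probe sets measured on all arrays, 1262 with a mean of at least 5, 327 with the length trend removed, and 38 to 3409 with 1 array left out. The 233 of Ase against GFP became 98 after quantile normalization, 118 over probe sets measured on all arrays, 143 with a mean of at least 5, 3532 with array weights, 147 and 128 with the length trend removed from all and from complete probe sets, and 84 to 206 with 1 array left out. The 220 shared calls became 5, 6, 23 and 13 after quantile normalization, over probe sets measured on all arrays, with a mean of at least 5 and with the length trend removed over complete probe sets, and 53 to 188 without 1 m3 array. The direction turned for qsm (0.095) and ush (0.13) with the length trend removed over complete probe sets. Both trend settings over complete probe sets or signal were chosen after seeing the data. Except where fewer probe sets or arrays entered, the cause was not tested.

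With the replicate number as a block, 346 probe sets were called (124 higher, 222 lower), and 247 interactions. Whether arrays of the same number were handled together is not stated, but all 4 arrays with zeros are numbered replicate 3. Deviations of same-numbered m3 and Ase+m3 arrays correlated at −0.14 (replicate 1) and −0.04 (replicate 2). The 2 Ase+m3 deviations mirror each other, so these correlations cannot decide whether the numbers mark a batch. Without a known pairing, the reason why calls were lost under the block was not tested.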
